A study of Mus musculus with 12 samples.

Results

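The genes described here encode surface molecules through which an antigen-presenting cell tells a T cell to respond or to stand down, measured in mouse thymic epithelial cells (TECs). They are 8 named genes, Cd40, Cd80, Cd86, Cd274, Pdcd1lg2, Icosl, Cd276 and Vtcn1, chosen by symbol as costimulatory and inhibitory molecules of the medullary epithelium. All 8 were found among the 25867 genes with a symbol, and all 8 passed the filter on low counts that left 18670 genes for testing. The RNA came from TECs sorted out of organ-cultured fetal thymus lobes of the C57BL/6 strain, taken at E15.5. The lobes first stood 4 to 5 days in 1.35 mM 2'-deoxyguanosine, a treatment that removes thymocytes. For 3 days after that the medium held an agonist antibody to RANK at 10 µg/mL, which induces the medullary regulator AIRE. There were 4 groups of 3 biological replicates each. The knockout cultures carried floxed Kat7 (Kat7 fl/fl) and RosaCre-ERT2, a Cre recombinase made at the broadly active Rosa locus and switched on by tamoxifen, so that deletion is not limited to the epithelium. The control cultures also received tamoxifen. Their genotype is labelled control without further detail, so whether they carried the Cre or the floxed gene is not known. WM-3835 cultures were wild type and received an inhibitor of KAT7, a histone acetyltransferase also called HBO1, and the DMSO cultures were wild type and received its solvent. In the sample titles the inhibitor is written WM-3825, elsewhere WM-3835. The labels give no dose or duration for it.

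A T cell that meets its antigen needs a second signal, and the B7 proteins CD80 and CD86 give it by binding CD28, while their binding of CTLA-4 dampens the cell. CD40 receives the ligand CD40L from T cells and signals through NF-kB, the pathway that RANK also uses, and both receptors drive the growth and maturation of medullary TECs. PD-L1, encoded by Cd274, and PD-L2, encoded by Pdcd1lg2, bind PD-1 and restrain T cells. ICOS ligand, encoded by Icosl, binds the CD28 relative ICOS. B7-H3 (Cd276) and B7-H4 (Vtcn1) are further B7 relatives, mostly described as inhibitory. In the thymic medulla, CD80 and CD86 on epithelial and dendritic cells take part in deleting self-reactive T cells and in forming regulatory T cells.

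The proximal promoters of the genes differ in base composition and motifs. RefSeq promoters on GRCm38.p6 (the mm10 assembly) were available for 6 of the 8 genes, all but Cd40 and Cd86. The 250 bases before the start are given 5′ to 3′ on the gene's own strand for Icosl, Cd276 and the neighbours Cd274 and Pdcd1lg2. Icosl was called in opposite directions in the comparisons and Cd276 was called lower in both. Cd274 was called lower with WM-3835 and Pdcd1lg2 in the knockout, but for neither did the difference between the changes pass. Capitals mark matches to the kappaB motif of NF-kB in Icosl and Pdcd1lg2, and to the GC box GGGCGG on either strand in Icosl, Cd276 and Cd274.
Icosl (chr10:78069118-78069367, plus strand): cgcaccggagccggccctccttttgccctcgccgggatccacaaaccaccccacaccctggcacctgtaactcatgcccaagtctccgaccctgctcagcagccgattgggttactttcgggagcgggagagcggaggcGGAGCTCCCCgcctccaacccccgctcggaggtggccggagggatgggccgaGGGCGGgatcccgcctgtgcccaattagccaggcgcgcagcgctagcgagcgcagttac
Cd276 (chr9:58555034-58555283, minus strand): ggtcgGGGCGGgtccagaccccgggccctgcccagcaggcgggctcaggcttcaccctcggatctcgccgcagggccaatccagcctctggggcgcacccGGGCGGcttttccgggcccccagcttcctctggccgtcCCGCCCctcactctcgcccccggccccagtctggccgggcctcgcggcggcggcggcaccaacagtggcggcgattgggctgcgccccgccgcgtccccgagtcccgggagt
Cd274 (chr19:29367188-29367437, plus strand): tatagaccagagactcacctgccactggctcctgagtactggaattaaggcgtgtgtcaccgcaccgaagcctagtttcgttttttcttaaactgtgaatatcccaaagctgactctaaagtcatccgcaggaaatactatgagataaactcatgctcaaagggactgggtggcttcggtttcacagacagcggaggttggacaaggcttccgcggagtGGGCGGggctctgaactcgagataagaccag
Pdcd1lg2 (chr19:29410669-29410918, plus strand): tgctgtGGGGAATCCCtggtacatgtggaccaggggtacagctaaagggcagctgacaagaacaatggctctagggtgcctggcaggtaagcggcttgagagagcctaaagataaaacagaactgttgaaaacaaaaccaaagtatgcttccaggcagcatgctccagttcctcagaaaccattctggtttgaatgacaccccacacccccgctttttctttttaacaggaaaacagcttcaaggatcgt

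Icosl held a kappaB match 111 bases before its start and a GC box 59 bases before it. Pdcd1lg2 held a kappaB match 244 bases before its start. Cd276 held 3 GC boxes, at 245, 150 and 112 bases, and Cd274 held 1, at 31 bases. Both strands were searched for kappaB, GC box, the interferon motifs GAS (TTCNNNGAA) and ISRE, the AP-1 motif (TGANTCA) and the TATA box, spelled TATAAA, and none of the marked matches overlap. Of the promoters not printed, Cd80 held an AP-1 match 42 bases before its start and Vtcn1 held no match. Among 32851 promoters of the same length, a kappaB match was found in 7.25%, a GC box in 32.7%, GAS in 7.02%, ISRE in 2.98%, AP-1 in 6.75% and TATA in 12.4%. The Cd276 window was 77.6% GC with 29 CpG and the Icosl window 68.8% GC with 23 CpG, against medians of 52.4% and 6 over all promoters. The Cd274 window was 50.4% GC with 11 CpG and the Pdcd1lg2 window 48.4% GC with 3 CpG. The Cd274 start that the table uses lies inside the span listed for the gene, so its window is not upstream of that whole span, and the same holds for Cd80. For Cd276 and Cd274 the bases just after the start were not found in a GENCODE transcript (an annotated RNA) of the gene. Their distances therefore rest on the RefSeq start alone. These matches describe letters and do not show that a factor binds there.

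Libraries held 26656847 to 52368012 counts. Kat7, the targeted gene, averaged 0.762 ± 0.138 CPM (counts scaled to a common library total) in knockout and 80.5 ± 7.38 CPM in control libraries (SD, n = 3 each). Values are CPM scaled by TMM, edgeR's correction for library composition. Some libraries stand apart. Control 1 held more of the ribosomal RNA gene Rn45s, 0.664% of counts against 0.165% to 0.265% elsewhere. Xist, the RNA of the inactive X chromosome, was at 1709, 1191 and 4.94 CPM in knockout 1, 2 and 3, at 2.34 to 3.17 CPM in control, at 846 to 2118 CPM in WM-3835 and at 1382 to 1898 CPM in DMSO libraries. Knockout calls of the members and counts over all genes are also given from a fit with Xist as a covariate. They are given too from a fit that keeps knockout 3 as its sole knockout library. Knockout changes of list, marker and neighbouring genes are not given from either fit, so the part of Xist in them was not tested. Epithelial markers (Epcam, Krt8, Krt18, Foxn1 and Cdh1) summed to 5032 to 6119 CPM over all libraries, against 8.82 to 16.5 CPM for 8 thymocyte markers.

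Per kilobase of counted length, the level that can be compared between genes, PD-L1 and ICOS ligand transcripts led and Vtcn1 was lowest in all 4 groups. In knockout libraries Cd274 stood at 140.5 to 159.9 CPM per kilobase, Icosl at 61.7 to 72.4 and Cd40 at 37.0 to 37.7. In control libraries Cd274 stood at 126 to 197 CPM per kilobase, Icosl at 46.9 to 50.6 and Cd40 at 40.1 to 45.1. These levels did not overlap within either group. With WM-3835, Icosl (90.7 to 106 CPM per kilobase) and Cd274 (82.6 to 106) overlapped, ahead of Cd40 at 32.4 to 38.0. With DMSO, Cd274 (150.2 to 162) lay above Icosl (117 to 128), and both lay above Cd40 at 53.0 to 60.1. The next genes in order were Cd80 and Cd276, which overlapped in knockout, control and WM-3835 libraries but not in DMSO libraries, where Cd276 (8.63 to 9.20) lay above Cd80 (5.70 to 8.36). Pdcd1lg2 and Cd86 followed. They overlapped in the knockout, at 3.94 to 5.46 for Pdcd1lg2 and 3.76 to 5.77 for Cd86, and Pdcd1lg2 lay above Cd86 in each of the other groups. Control Pdcd1lg2 (7.55 to 11.5) also reached the lowest control value of Cd80 (11.2). Vtcn1 lay between 0.057 and 1.19 CPM per kilobase over all libraries.

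**Figure D1:**
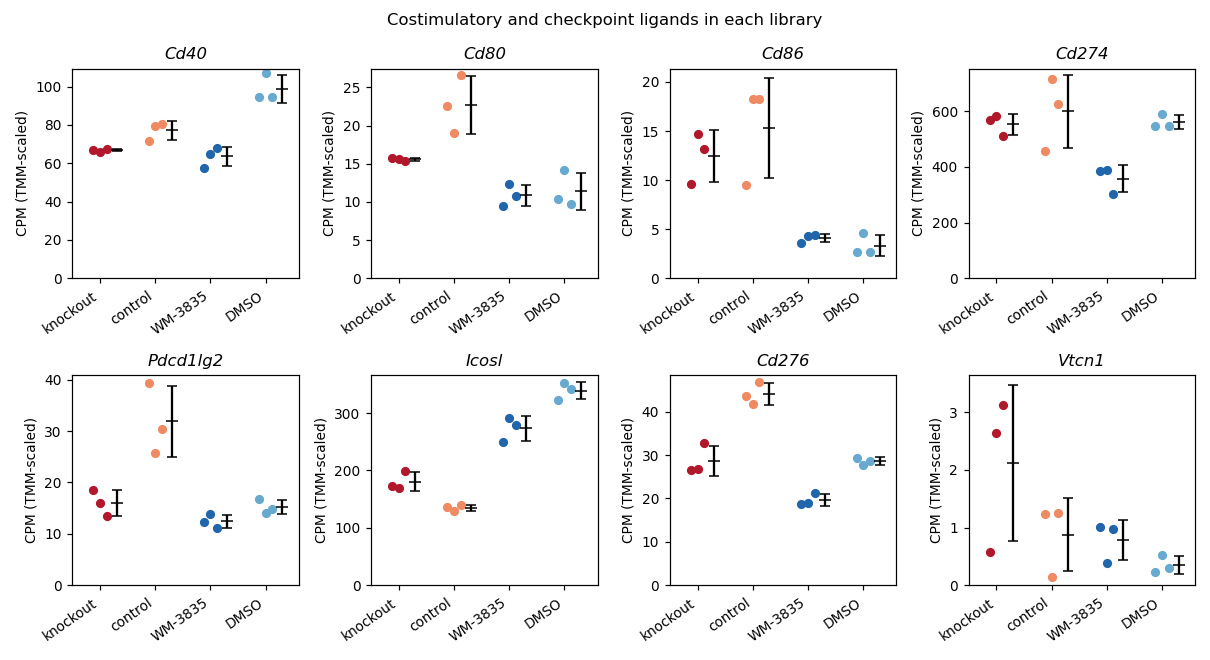
TMM-scaled CPM of each of the 8 genes in every library, with knockout left of control and WM-3835 left of DMSO. Points are libraries and bars the group mean with its SD. Icosl in knockout libraries (169.7 to 199 CPM) lies above control (129 to 139 CPM), while with WM-3835 (249 to 292 CPM) it lies below DMSO (323 to 353 CPM).

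Knockout against control shows the members without KAT7, and WM-3835 against DMSO shows them under a chemical block of it in wild-type cultures. In the knockout, Icosl rose, and Pdcd1lg2, Cd276 and Cd80 fell. With WM-3835, Cd40, Cd274, Cd276 and Icosl fell and no member rose. Cd276 was therefore called lower in both, and Icosl moved in opposite directions. With Xist in the fit, the knockout calls of Cd276 (-0.42, edgeR adjusted p = 0.197) and Cd80 (-0.54, adjusted p = 0.341) were lost. Among the 8 genes, the knockout comparison called 1 higher and 3 lower and left 4 uncalled, where 6.12% of all tested genes were called higher and 8.06% lower. The inhibitor comparison called 0 higher, 4 lower and 4 neither way, where 9.34% of all tested genes were called higher and 9.35% lower. At an unadjusted p under 0.05, and by DESeq2 and limma-voom, the count of members higher with the inhibitor was also 0. The members' median log2 change was -0.25 in the knockout and -0.30 with WM-3835, against -0.01 over all tested genes in each. A call is a two-sided edgeR quasi-likelihood test with an adjusted p under 0.05, the adjustment being Benjamini-Hochberg across the 18670 genes. The inhibitor and solvent libraries all held Xist. Where a gene is also made by cells other than TECs, fewer such cells and less RNA per cell cannot be told apart in these bulk samples.

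**Figure D2:**
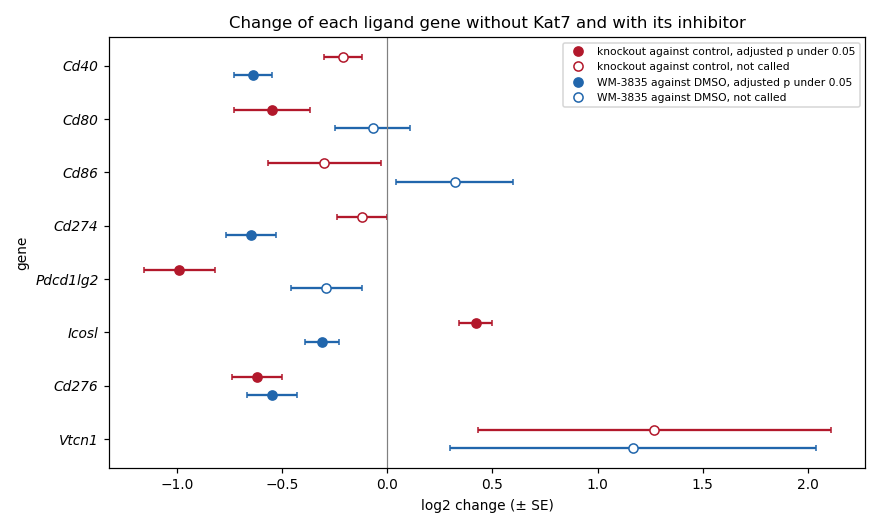
Log2 change of each of the 8 genes with its standard error (SE) as the bar, for knockout against control (red, upper row of each gene) and WM-3835 against DMSO (blue, lower row). Filled points passed an adjusted p under 0.05. Cd276 is filled on the lower side in both, and Icosl is at 0.42 in the knockout and -0.31 with the inhibitor.

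Cd40 (Entrez ID 21939, chromosome 2, 165055614 to 165071654 on GRCm38.p6) encodes the receptor of the group. It stood at 67.1, 66.1 and 67.3 CPM in knockout 1, 2 and 3, against 71.6, 79.3 and 80.5 CPM in control 1, 2 and 3. All knockout libraries lay below all controls, and control 1 was the nearest. The log2 change of -0.21 (SE 0.09) did not pass (edgeR adjusted p = 0.124). With WM-3835 Cd40 stood at 57.8, 65.1 and 67.8 CPM, against 94.6, 107 and 94.5 CPM with DMSO. The groups lay well apart, and Cd40 fell to 0.644 of its DMSO level (log2 change -0.64, SE 0.09, adjusted p = 3.89e-05). The knockout change exceeded the inhibitor change by 0.43 (SE 0.12, edgeR adjusted p = 0.0306). That difference did not pass without control 1 (0.40, adjusted p = 0.0501), DMSO 2 (0.38, 0.0856) or WM-3835 1 (0.37, 0.09), with Xist in the fit (0.45, 0.14) or with knockout 3 alone (0.46, 0.125). Cd40lg, the gene of the CD40 ligand, had 0 counts in all 12 libraries.

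Cd80 (Entrez ID 12519, chromosome 16, 38457430 to 38495958, plus strand) encodes the B7-1 ligand of CD28. It stood at 15.8, 15.6 and 15.3 CPM in the knockout libraries, against 22.6, 19 and 26.6 CPM in control. The knockout values lay close together and below every control value. Cd80 fell to 0.684 of control (log2 change -0.55, SE 0.18, edgeR adjusted p = 0.0442), just past the threshold. The call was lost in 10 of 17 alternative fits. These were the fits with Xist in the model (-0.54, adjusted p = 0.341), with knockout 3 alone (-0.56, 0.277), with quality weights per group (-0.53, 0.13), on the 6 libraries compared (-0.56, 0.0887) and with the replicate number as a block (-0.55, 0.0512). It was also lost without control 1 (-0.54, adjusted p = 0.0748), control 3 (-0.41, 0.141), knockout 1 (-0.55, 0.098), knockout 2 (-0.54, 0.108) or knockout 3 (-0.53, 0.111). With WM-3835 Cd80 stood at 9.44, 12.3 and 10.8 CPM, against 10.4, 14.2 and 9.69 CPM with DMSO. These groups overlapped, and the log2 change of -0.07 (SE 0.18) did not pass (edgeR adjusted p = 0.869). The changes differed by -0.48 (SE 0.25), which did not pass (adjusted p = 0.259), so a fall of Cd80 particular to the knockout is not shown.

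Cd86 (Entrez ID 12524, chromosome 16, 36568956 to 36666158) encodes B7-2, the other CD28 ligand, and lies 1791.3 kb from Cd80. It stood at 9.56, 14.7 and 13.2 CPM in knockout libraries, against 9.46, 18.3 and 18.3 CPM in control. With WM-3835 it stood at 3.63, 4.33 and 4.37 CPM, against 2.70, 4.56 and 2.69 CPM with DMSO. Both pairs of groups overlapped, and neither the knockout change of -0.30 (SE 0.27) nor the inhibitor change of 0.32 (SE 0.28) passed (edgeR adjusted p = 0.508 for each). Per base, Cd80 exceeded Cd86 in every library. The ratio was 2.47, 1.59 and 1.72 in knockout and 3.57, 1.55 and 2.17 in control libraries. It was 3.89, 4.25 and 3.70 with WM-3835 and 5.74, 4.65 and 5.37 with DMSO, so that every WM-3835 ratio lay below every DMSO ratio.

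Icosl (Entrez ID 50723, chromosome 10, 78069368 to 78079525, plus strand), with the kappaB match and CpG-rich promoter shown above, encodes the ligand of ICOS. It stood at 173, 169.7 and 199 CPM in knockout libraries, against 136, 129 and 139 CPM in control. Every knockout library lay above every control, and Icosl rose 1.34-fold (log2 change 0.42, SE 0.08, edgeR adjusted p = 0.00169). The rise passed in all 17 alternative fits, at 0.36 to 0.59. With WM-3835 Icosl stood at 249, 292 and 279 CPM, against 323, 353 and 342 CPM with DMSO. Every inhibitor library lay below every DMSO library, and Icosl fell by 0.31 on the log2 scale (SE 0.08, edgeR adjusted p = 0.00927). Without WM-3835 1, the lowest of its group, the change was -0.25 and did not pass (adjusted p = 0.0715). The changes differed by 0.73 (SE 0.11, edgeR adjusted p = 0.000293), and this difference passed in all 22 alternative fits, at 0.67 to 0.91.

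Cd274 (Entrez ID 60533, chromosome 19, 29362107 to 29388095, plus strand) encodes PD-L1 and was the member with the most counts. It stood at 567, 582 and 511 CPM in knockout libraries, against 457, 716 and 626 CPM in control. The control values enclosed those of the knockout, and the log2 change of -0.12 (SE 0.12) did not pass (edgeR adjusted p = 0.596). With WM-3835 Cd274 stood at 386, 387 and 301 CPM, against 547, 590.3 and 546 CPM with DMSO. The groups lay well apart, and Cd274 fell by 0.65 on the log2 scale (SE 0.12, edgeR adjusted p = 0.000989). This fall passed in all 16 alternative fits, at -0.71 to -0.54. The difference between the changes was 0.53 (SE 0.17) and did not pass (adjusted p = 0.0594). It passed in 7 of 22 alternative fits, among them those without control 2 (0.70, adjusted p = 0.00797), control 3 (0.58, 0.0479) or WM-3835 2 (0.60, 0.0484). The listed span overlaps 5186 bases of Plgrkt, a plasminogen receptor gene on the minus strand. Since the library kit does not mark strand, reads from the shared stretch cannot be assigned to either gene.

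Pdcd1lg2 (Entrez ID 58205, chromosome 19, 29410919 to 29472927, plus strand) encodes PD-L2 and starts 22.8 kb beyond Cd274. It stood at 18.6, 15.9 and 13.5 CPM in knockout libraries, against 39.4, 25.8 and 30.4 CPM in control. All knockout libraries lay below all controls, and Pdcd1lg2 fell to 0.503 of control (log2 change -0.99, SE 0.17, edgeR adjusted p = 0.000772). The fall passed in all 17 alternative fits, at -1.27 to -0.80. With WM-3835 it stood at 12.3, 13.8 and 11.2 CPM, against 16.7, 14.1 and 14.8 CPM with DMSO. Every inhibitor library lay below every DMSO library, yet the log2 change of -0.29 (SE 0.17) did not pass (adjusted p = 0.283). The difference between the changes, -0.70 (SE 0.24), did not pass either (edgeR adjusted p = 0.0707). It passed without control 2 (-0.82, adjusted p = 0.0283) and with the replicate number as a block (-0.71, 0.0486).

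The relation of the PD-1 ligands to each other moved with these changes. Per base, Cd274 exceeded Pdcd1lg2 by 28.6, 34.3 and 35.7 times in knockout libraries, against 10.9, 26.0 and 19.3 times in control. Every knockout ratio was above every control ratio. With WM-3835 the ratio was 29.4, 26.2 and 25.1, against 30.8, 39.2 and 34.7 with DMSO, so the inhibitor libraries lay below. The ratio of Icosl to Cd274 per base was 0.403, 0.386 and 0.515 in knockout libraries, against 0.393, 0.238 and 0.294 in control, and these groups overlapped. It was 0.856, 1.00 and 1.23 with WM-3835, against 0.781, 0.791 and 0.829 with DMSO, which did not overlap.

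Cd276 (Entrez ID 102657, chromosome 9, 58524300 to 58555033, minus strand), whose promoter held 3 GC boxes, encodes B7-H3. It stood at 26.5, 26.7 and 32.7 CPM in knockout libraries, against 43.5, 41.8 and 46.9 CPM in control. With WM-3835 it stood at 18.6, 18.9 and 21.2 CPM, against 29.4, 27.6 and 28.6 CPM with DMSO. In both comparisons the groups lay apart. Cd276 fell by 0.62 on the log2 scale in the knockout (SE 0.12, edgeR adjusted p = 0.00165) and by 0.55 with the inhibitor (SE 0.12, adjusted p = 0.00256). The difference between these falls was -0.07 (SE 0.16, adjusted p = 0.855). The call in the knockout was lost when Xist entered the fit (-0.42, adjusted p = 0.197) and when knockout 3, the highest of its group, stood alone (-0.42, 0.158). The inhibitor fall passed in all 16 alternative fits, at -0.61 to -0.51.

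Vtcn1 (Entrez ID 242122, chromosome 3, 100825459 to 100896922, plus strand), which encodes B7-H4, was counted rarely. Its raw counts were 21, 72 and 90 in knockout libraries, against 52, 6 and 45 in control. They were 45, 15 and 28 with WM-3835, against 12, 14 and 13 with DMSO. The log2 changes were 1.27 (SE 0.84, edgeR adjusted p = 0.359) in the knockout and 1.17 (SE 0.87, adjusted p = 0.411) with the inhibitor. Replicates of a group differed widely, as at 6 and 52 counts among the controls, and no change of Vtcn1 was detectable with standard errors of this size.

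Setting the knockout change against the inhibitor change, 2 members differed upward, Icosl and Cd40, and 0 downward, where 4.41% of all tested genes differed upward and 5.69% downward. At an unadjusted p under 0.05, 1 member, Pdcd1lg2, differed downward, and by DESeq2 and limma-voom 0 did. The members' median difference was 0.01, against -0.00 over all tested genes.

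The DMSO and control libraries differed at most of these genes. DMSO against control is a description, since genotype label, tamoxifen and Xist all differ between the groups and cannot be told apart. In it 2 members were higher and 4 lower, where 11.4% of all tested genes were higher and 13.3% lower, and the members' median log2 change was -0.81, against 0.00 over all genes. Icosl (1.33, SE 0.08, edgeR adjusted p = 1.31e-09) and Cd40 (0.36, SE 0.09, adjusted p = 0.00489) were higher with DMSO. Cd86 (-2.22, SE 0.28, edgeR adjusted p = 1.16e-05), Pdcd1lg2 (-1.07, SE 0.17), Cd80 (-1.0, SE 0.18) and Cd276 (-0.63, SE 0.12) were lower, at adjusted p of 0.000545 or less. With Xist as a covariate, 1 member was called higher and 1 lower in this comparison. Cd274 differed by -0.10 (SE 0.12, adjusted p = 0.64). Ptprc, the common surface marker of blood cells, was also lower with DMSO than in control (-2.81, SE 0.48, edgeR adjusted p = 0.000239).

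Markers of other cells that can carry these ligands were measured beside them. For the counts below, 6.12% of all tested genes were called higher and 8.06% lower in the knockout. These shares were 9.34% and 9.35% with WM-3835, and 11.4% and 13.3% in DMSO against control. Of 14 dendritic cell and macrophage markers, summed levels were 133 to 152 CPM in knockout and 142 to 209 CPM in control libraries, and 147 to 165 CPM with WM-3835 and 142 to 147 CPM with DMSO. Sirpa and Lyz2 made up most of these sums, with Sirpa averaging 82.9 to 111 CPM per group, so the sums say little about rarer markers. Ptprc averaged 8.18 ± 2.74 CPM in knockout and 8.68 ± 4.33 CPM in control libraries, and 1.17 ± 0.591 CPM with WM-3835 and 1.27 ± 0.764 CPM with DMSO (SD, n = 3 each). In the knockout 1 of the 10 tested rose (Zbtb46, 0.98, SE 0.24) and 1 fell (Lyz2, -0.98, SE 0.25), and with WM-3835 1 rose (Sirpa, 0.28, SE 0.09) and 0 fell. With DMSO against control, 1 was higher and 3 lower. Siglech, a marker of plasmacytoid dendritic cells, was at 0 in all knockout, control and WM-3835 libraries. Ptprc did not pass in the knockout (-0.08, SE 0.43, edgeR adjusted p = 0.924) or with WM-3835 (-0.07, SE 0.48, adjusted p = 0.958). Summed B-cell markers (6 genes) stood at 11.9 to 14.8 CPM in knockout and 12.2 to 16.4 CPM in control libraries, and at 7.93 to 9.13 CPM with WM-3835 and 11.2 to 12.9 CPM with DMSO. Of the 5 tested, 0 were called in the knockout and 1 (Ebf1, -0.88, SE 0.28) fell with WM-3835. Fibroblast and endothelial markers (9 genes) stood at 48.6 to 71.2 CPM in the knockout and 115 to 174 CPM in control, beside the falls of Pdcd1lg2, Cd276 and Cd80, and 4 of them fell. They stood at 42.5 to 52.3 CPM with WM-3835 and 42.6 to 52.3 CPM with DMSO, but single genes moved beneath these like sums. Beside the falls of Cd40, Cd274, Cd276 and Icosl with the inhibitor, Pdgfra averaged 18.5 ± 3.76 CPM with WM-3835 and 1.06 ± 0.246 CPM with DMSO (log2 change 4.11, SE 0.44, edgeR adjusted p = 2.66e-06). Dcn fell by 1.10 (SE 0.20) and Thy1 by 3.79 (SE 0.66), and these were the 1 rise and 2 falls of that list, named after their values were seen.

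Markers of epithelial subsets were also measured, and whether they changed in cell number or per cell cannot be told apart. The shares of all tested genes to set beside these counts are those given above, 6.12% higher and 8.06% lower in the knockout and 9.34% and 9.35% with WM-3835. Of 10 mature medullary markers, 5 fell and 0 rose in each comparison. Of 8 immature medullary markers, 7 fell in the knockout and 5 with WM-3835, with 0 rising. Of 8 cortical markers, 5 rose and 0 fell in the knockout, while 1 rose and 6 fell with WM-3835. The part of these cell types in the changes of the ligands was not tested.

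Receptors of the ligands on T cells were scarce. The 8 coreceptor genes summed to 5.41 to 5.63 CPM in knockout and 16.2 to 21.3 CPM in control libraries, and to 1.59 to 2.88 CPM with WM-3835 and 4.31 to 6.10 CPM with DMSO. Of them 4 passed the filter, and 2 of these fell in the knockout. Among all tested genes, 8.06% fell in the knockout and 9.35% with WM-3835. Cd28, the receptor of CD80 and CD86, averaged 2.34 ± 0.762 CPM in knockout and 9.74 ± 1.56 CPM in control (log2 change -2.06, SE 0.38, edgeR adjusted p = 0.00131). Btla, an inhibitory receptor, fell by 1.66 (SE 0.50, adjusted p = 0.0324). With WM-3835 1 of the 4 fell, Btla, at 0.227 ± 0.166 CPM against 1.47 ± 0.294 CPM with DMSO (log2 change -2.71, SE 0.57, edgeR adjusted p = 0.00219).

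Of 7 other B7 and butyrophilin family genes tested, 2 fell in the knockout, Vsir and Igsf11, and with WM-3835 1 rose (Vsig10) and 1 fell (Skint1). The shares of all tested genes were 8.06% lower in the knockout, and 9.34% higher and 9.35% lower with WM-3835. Vsir, which encodes the inhibitory ligand VISTA, averaged 8.18 ± 0.925 CPM in knockout and 20.8 ± 8.96 CPM in control libraries (log2 change -1.35, SE 0.26, edgeR adjusted p = 0.00222). Igsf11 fell by 2.75 (SE 0.70) at 0.376 ± 0.351 CPM against 2.50 ± 1.21 CPM in control. Vsig10 rose by 0.32 (SE 0.09) and Skint1, a thymic and skin epithelial gene known for selecting gamma-delta T cells, fell by 0.35 (SE 0.11), both with the inhibitor.

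Of 13 costimulatory and checkpoint ligands outside the B7 family that were tested, 5 rose and 1 fell with WM-3835, and 0 rose and 1 fell in the knockout. As a background, 9.34% of all tested genes rose and 9.35% fell with WM-3835, and 6.12% rose and 8.06% fell in the knockout. Of the ligands of the receptor TIGIT in the list, Pvr and Nectin2 rose, while Nectin3 did not pass with WM-3835 (-0.35, SE 0.17, edgeR adjusted p = 0.184). Pvr (CD155) averaged 44.5 ± 5.55 CPM with WM-3835 and 25.6 ± 3.46 CPM with DMSO (log2 change 0.80, SE 0.15, edgeR adjusted p = 0.000931), and 22.2 ± 3.71 CPM in knockout and 32.0 ± 4.71 CPM in control libraries (-0.53, SE 0.15, adjusted p = 0.027). Nectin2 (CD112) rose by 0.76 (SE 0.13) with WM-3835. Lgals9, whose galectin-9 binds TIM-3, rose by 0.43 (SE 0.08), and Cd24a, a ligand of Siglec receptors, rose by 0.57 (SE 0.10). The remaining pair, named after their values were seen, were Cd47, the ligand of SIRP-alpha, which rose by 0.40 (SE 0.10), and Cd70, the ligand of CD27, which fell by 1.03 (SE 0.35). The changes in Pvr differed by -1.32 (SE 0.21, edgeR adjusted p = 0.000491) between knockout and inhibitor, those in Nectin2 by -0.77 (SE 0.18, adjusted p = 0.00886) and those in Lgals9 by -0.60 (SE 0.11, adjusted p = 0.00165).

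**Figure D3:**
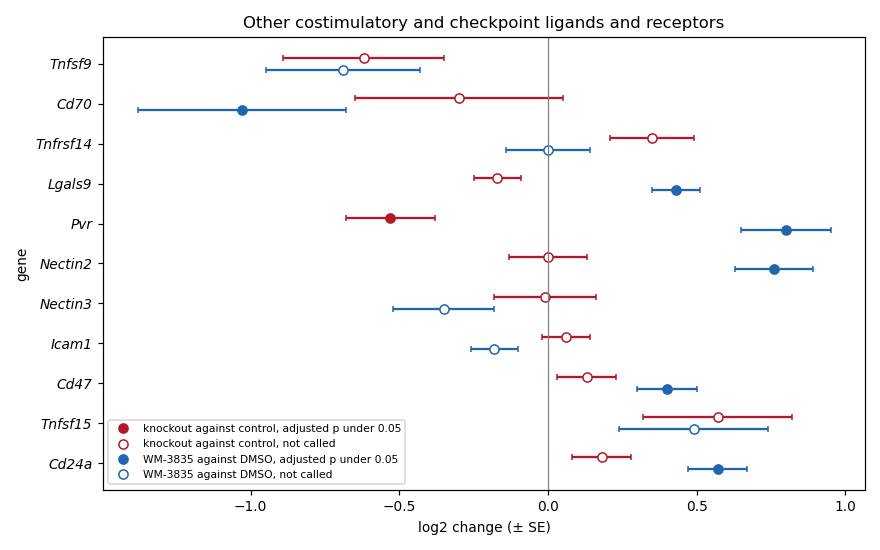
Log2 change with SE of ligand genes outside the 8, for knockout against control (red) and WM-3835 against DMSO (blue), filled where the adjusted p is under 0.05. Pvr is at -0.53 in the knockout and 0.80 with WM-3835. Tnfsf14 and Cd48, whose standard errors exceeded 1, are not drawn.

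Of 22 genes of CD40 and RANK signalling to NF-kB, 2 rose and 3 fell in the knockout, where 6.12% of all tested genes rose and 8.06% fell. With 22 genes such counts are near that background, and nothing is read from them about the pathway. Tnfrsf11b, whose product osteoprotegerin is a decoy for RANK ligand, fell by 1.01 (SE 0.11, edgeR adjusted p = 1.64e-05). Map3k14, the NIK kinase of the non-canonical pathway, fell by 0.31 (SE 0.08), Tnfaip3, which encodes the A20 brake on NF-kB, fell by 0.39 (SE 0.11), and the adaptor gene Traf6 rose by 0.33 (SE 0.09). Ikbkg, which encodes NEMO, also rose (0.28, SE 0.09). With WM-3835, 2 rose and 4 fell, where 9.34% of all tested genes rose and 9.35% fell. Birc2 and Birc3, which restrain NIK, fell by 0.68 (SE 0.08) and 0.36 (SE 0.08). Relb, a subunit of the non-canonical pathway, fell by 0.27 (SE 0.08) and Tnfrsf11b by 0.37 (SE 0.11), both named after their values were seen. Ikbkg rose by 0.46 (SE 0.09), and Rela, an NF-kB subunit, rose by 0.34 (SE 0.08), with an adjusted p of 0.00474 for Rela.

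Interferon-gamma is a known inducer of PD-L1. Of 16 genes of its signalling and response, 2 rose and 2 fell in the knockout, and 6 rose and 2 fell with WM-3835. Over all tested genes, 6.12% rose and 8.06% fell in the knockout, and 9.34% rose and 9.35% fell with WM-3835. Jak2, the kinase gene 49.0 kb from Cd274, averaged 314 ± 8.97 CPM in knockout and 205 ± 29.0 CPM in control libraries (log2 change 0.62, SE 0.08, edgeR adjusted p = 9.38e-05). It averaged 341 ± 4.04 CPM with WM-3835 and 178 ± 7.50 CPM with DMSO (0.94, SE 0.08, edgeR adjusted p = 3.9e-07). Gbp2, an interferon-induced GTPase, rose in both, by 0.47 (SE 0.11) and 1.19 (SE 0.11). Nlrc5, the activator of MHC class I genes, rose by 0.76 (SE 0.08) and Stat2 by 0.32 (SE 0.06) with WM-3835. In the knockout Cxcl9, a chemokine, fell by 1.16 (SE 0.27) and Ciita, the activator of MHC class II genes, by 0.23 (SE 0.07). With WM-3835 Cxcl9, named after its values were seen, fell by 0.88 (SE 0.27). With the inhibitor Cd274 fell, and the list moved both ways, with Jak2, Gbp2, Nlrc5 and Stat2 rising and Cxcl9 falling. Of the 16 genes 8 were not called, and the list's median log2 change with WM-3835 was 0.01. A link between these genes and Cd274 was not tested.

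Of 9 genes whose products act on PD-L1 as a protein, a list that includes Cd274 and Cd80 themselves, 2 fell in the knockout and 4 with WM-3835, with 0 rising in either. Cd80 was among the 2 knockout falls and Cd274 among the 4 with WM-3835, so these counts partly repeat changes of the members. All tested genes fell at shares of 8.06% and 9.35% and rose at shares of 6.12% and 9.34%, in that order. B4galt1, a galactosyltransferase, fell in both, by 0.41 (SE 0.12, edgeR adjusted p = 0.0351) and 0.52 (SE 0.12, adjusted p = 0.00568). Gsk3b and Spop, which promote the breakdown of PD-L1, fell by 0.28 (SE 0.08) and 0.23 (SE 0.07) with WM-3835. Cmtm6, which keeps PD-L1 at the surface, did not pass in the knockout (-0.11, SE 0.08, adjusted p = 0.405) or with WM-3835 (-0.19, SE 0.08, adjusted p = 0.125).

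The genes beside Icosl and Cd274 did not all move with them. Aire lies 25.8 kb from Icosl, and Dnmt3l, which encodes a partner of DNA methyltransferases, lies 5.7 kb from Icosl. Dnmt3l runs on the opposite strand to Aire and overlaps its 5′ part, so reads there cannot be assigned to either. In the knockout, where Icosl rose, Aire fell by 0.24 (SE 0.08, edgeR adjusted p = 0.0457) and Dnmt3l by 1.06 (SE 0.29, adjusted p = 0.019). With WM-3835, where Icosl fell, Aire fell by 1.11 (SE 0.08, edgeR adjusted p = 3.36e-08) and Dnmt3l by 0.99 (SE 0.29, adjusted p = 0.0214). At the PD-1 ligand genes, Plgrkt fell by 0.97 with WM-3835 (SE 0.11, edgeR adjusted p = 8.44e-06), beside the fall of Cd274 that it overlaps. Plgrkt did not pass in the knockout (-0.22, SE 0.11, adjusted p = 0.23).

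**Figure D4:**
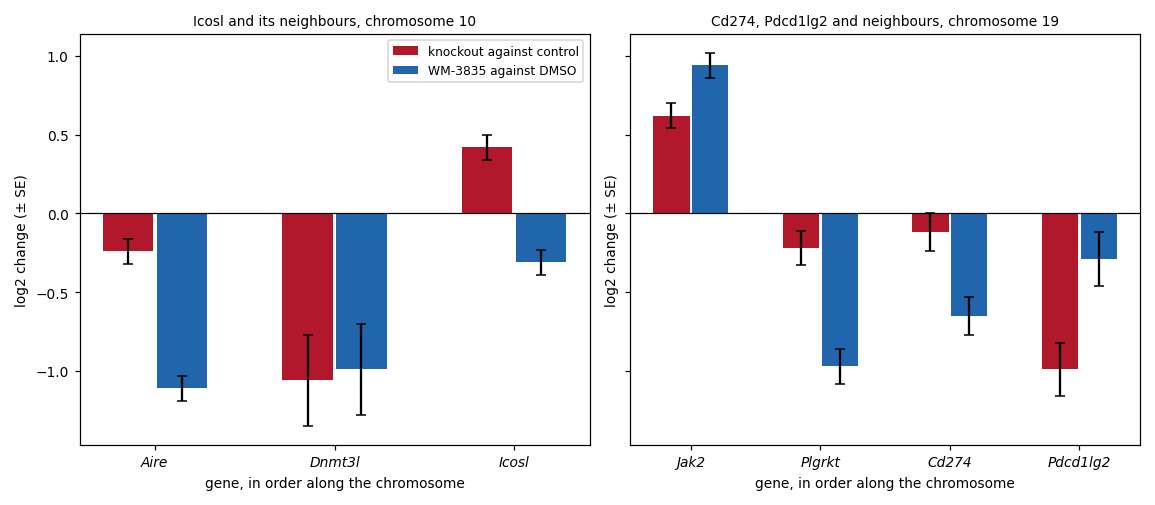
Log2 change with SE of some genes around Icosl and around Cd274 and Pdcd1lg2, as bars for knockout against control (red) and WM-3835 against DMSO (blue). Bars are drawn alike whether or not the change passed. Of Icosl, Aire and Dnmt3l, Icosl alone is above 0 in the knockout, and Jak2 lies above 0 in both comparisons while Cd274 is at -0.65 with WM-3835.

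Over the 12 libraries, the genes whose log2 CPM followed a member most closely differed from member to member. Pearson's r is given as a description, with no test, since the points share the 4 group levels. For Cd274 they were Tbc1d10a (0.981), Pds5b (0.973) and Rasgef1b (0.966). For Icosl they were Hspd1 (0.974), Dock10 (0.964) and Eno2 (0.963). For Cd40 they were Lsm14b (0.970), Micall2 (0.959) and S100a3 (0.957). None of these 9 was a member or stood in a pathway list. For Cd276 they were Serinc5 (0.970), Gjb2 (0.962) and Efnb1 (0.960), and for Pdcd1lg2 Trim29 (0.956), Tpd52l1 (0.953) and Fblim1 (0.949). For Cd80 they were Prg2 (0.966), Fabp4 (0.965) and Fam241a (0.958), for Cd86 Minar2 (0.956), Trim16 (0.954) and Prdx5 (0.954), and for Vtcn1 Wnt5a (0.909), Ppargc1a (0.898) and Rc3h2 (0.898).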

How the data were processed

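Raw counts per gene were used as deposited. Per the submitters' processing notes, the authors counted with featureCounts against mm10. Which aligner, annotation and strand setting they used the sources used here do not give. The deposited gene length, another quantity in the authors' table, was used for levels per kilobase. Of 27179 genes, 1312 without a symbol were left out (0.657% to 0.743% of a library's counts).

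A quasi-likelihood model of all 12 libraries with a mean per group was run after TMM scaling and filterByExpr in edgeR 4.0.16 (R 4.3.3). SE follow from the log2 change and the F statistic. Adjusted p-values are Benjamini-Hochberg over all 18670 genes. The code was tested on simulated data. DESeq2 1.42.0 and limma 3.58.1 served as alternatives.

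The members and lists were chosen with earlier results of these data known. Named are the members and, of each list and main comparison, up to 4 called genes of smallest adjusted p. Zero-count genes and the 3 genes most like each member are added. Ptprc, Siglech, Zbtb46, Lyz2, Sirpa, Cmtm6 and Ikbkg in the knockout were named after their values were seen. A gene of the interferon list is not reported here by name. P-values come from a fit of all 12 libraries, 3 per group, which share the estimate of each gene's spread. The spread between replicates was unequal. The biological coefficient of variation, the relative spread beyond counting noise, was 0.469 in control and 0.294 in knockout libraries. It was 0.103 with DMSO and 0.125 with WM-3835. A p-value of either comparison also rests on the spread of libraries outside it. How far the libraries came from separate litters is not given.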

Additional observations from a re-analysis of the deposited data

Results flagged for a closer look

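Several genes changed by different amounts in the knockout and with the inhibitor, by the edgeR test of the difference between the changes. Among the 8 members, the knockout change minus the inhibitor change was 0.43 for Cd40 (SE 0.12, adjusted p = 0.0306) and 0.73 for Icosl (SE 0.11, adjusted p = 0.000293).

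Among related ligands it was -1.50 for Vsir (SE 0.37, edgeR adjusted p = 0.0121), -1.32 for Pvr (SE 0.21), -0.77 for Nectin2 (SE 0.18) and -0.60 for Lgals9 (SE 0.11). In NF-kB signalling it was -0.64 for Tnfrsf11b (SE 0.16), 0.58 for Traf6 (SE 0.13), 0.82 for Birc2 (SE 0.11) and -0.47 for Rela (SE 0.11). In the interferon list it was -0.72 for Gbp2 (SE 0.15), -0.76 for Nlrc5 (SE 0.12) and -0.32 for Stat2 (SE 0.09), and for Gsk3b it was 0.39 (SE 0.11). All had an adjusted p of 0.0311 or less. The knockout and inhibitor comparisons also differ in tamoxifen, genotype and Xist, whose part in these differences was not tested.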

How the results depend on the processing

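Over all alternatives, the log2 changes of the 8 members kept direction and call in 526 fits, lost the call in 22, gained it in 9 and reversed in 11. Every reversal was of a change that did not pass. Without control 2, Cd274 was 0.04 in the knockout and 0.07 in DMSO against control, where leaving out 1 library gave -0.24 to 0.07. Cd80 with WM-3835 was 0.11 without DMSO 2 and 0.03 without WM-3835 1, in a range of -0.18 to 0.11. The difference between the changes of Cd276 was 0.13 when Xist entered the fit and 0.14 when knockout 3 stood alone, 2 fits added after the data were seen. That of Vtcn1 was -0.39 without control 2, -0.08 without knockout 2, -0.29 without knockout 3, -0.27 without DMSO 2 and -0.22 without WM-3835 2, in a range of -0.39 to 0.56.

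Of the 3 members that fell in the knockout, 1 (Pdcd1lg2) was called when Xist entered the fit and 1 when knockout 3 stood alone. The difference between the changes called 1 member higher in each of these fits. In DMSO against control, 1 was higher and 1 lower with Xist as a covariate. Leaving out 1 library in turn called 2 to 3 members lower in the knockout, 3 to 4 lower with WM-3835, 1 to 3 higher in the difference and 0 to 1 lower in it.

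The shared replicate numbers were checked for pairing. Correlations of deviations between same-numbered libraries were 0.00218 to 0.00918 for knockout and control and 0.00317 to 0.058 for WM-3835 and DMSO, so the numbers were not taken as pairs. Libraries correlated best with their own number in 5 of 6 and 4 of 6 cases. With the replicate block, 1 member (Pdcd1lg2) was lower in the difference, Cd274 passed in it (0.55, adjusted p = 0.0315), and Cd80 did not pass in the knockout (-0.55, adjusted p = 0.0512).

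Counts over all genes moved by more than 1.5 times in a few fits. In the knockout, 248 genes were higher and 456 lower with knockout 3 alone, 391 and 789 with quality weights per group, 377 and 780 on the libraries compared only, and 166 and 314 with Xist as a covariate. With WM-3835, 3344 were higher and 3245 lower with quality weights, and 3012 and 3058 on the libraries compared only. The difference gave 325 higher and 459 lower with knockout 3 alone, and 282 and 413 with Xist as a covariate. DMSO against control gave 239 higher and 556 lower with Xist as a covariate. Leaving out 1 library gave 767 to 1346 higher and 1006 to 1499 lower in the knockout, 1172 to 1315 higher and 1205 to 1374 lower with WM-3835, 594 to 1074 higher and 743 to 1196 lower in the difference, and 1463 to 2422 higher and 1794 to 2400 lower in DMSO against control.

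On the libraries compared only, list counts in the knockout became 1 lower for other B7 genes, 0 lower for other ligands, 0 higher and 1 lower for NF-kB signalling, 1 lower for the interferon list and 0 lower for PD-L1 regulators. With WM-3835 they became 2 lower for other B7 genes, 4 lower for other ligands and 7 lower for NF-kB signalling. The cause of these shifts was not tested.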
